A study of Rattus norvegicus with 6 samples.

Results

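Pvalb, Whrn, Esrrg, Cntnap2, Calb1, Slc17a7, Ldhb and Fxyd7 are 8 genes used as markers of the myelinated mechanoreceptors and proprioceptors of the dorsal root ganglion, which houses the cell bodies of sensory neurons next to the spinal cord. They were chosen by symbol from the 18705 gene IDs in the deposited tables, and all 8 were found. The ganglia came from SD rats in 2 groups of 3 libraries. In the SNI (spared nerve injury) group the tibial and common peroneal nerves were tied and cut, a short piece of the distal ends was removed, and the sural nerve was spared. In the sham group the sciatic nerve and its branches were exposed and the skin was closed. The injury cuts axons of some of the neurons of a ganglion and spares others, and a ganglion library mixes both with glia, blood and immune cells. The time after surgery, the spinal level and side of the ganglia, the age and sex of the rats and any pooling are not stated in the labels. Nor do they tie each library to its own animal, so the p-values reflect only the spread among these libraries, part or all of which may be technical.

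Myelinated sensory neurons carry touch and limb position. Low-threshold mechanoreceptors end in the skin around hairs and in corpuscles, and proprioceptors end in muscle spindles and tendon organs. Their large cell bodies fire fast, depend on nodes of Ranvier along myelinated axons, and release glutamate in the dorsal horn and onto motor neurons. The 8 genes mark different sides of this life. Pvalb and Calb1 encode the calcium buffers parvalbumin and calbindin. Slc17a7 encodes VGLUT1, which loads glutamate into synaptic vesicles. Cntnap2 encodes Caspr2, which gathers Kv1 potassium channels beside the paranodes. Esrrg is a nuclear receptor of oxidative metabolism, Ldhb the lactate dehydrogenase subunit of oxidative tissues, Fxyd7 a small regulator of the sodium pump, and Whrn the scaffold protein whirlin. Ldhb and Fxyd7 in particular are not restricted to these neurons.

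RNA abundance was deposited as TPM, a share of transcripts that allows for their length, with an equal total in every library. For 18696 genes the authors gave TPM and read counts averaged over each group, with no spread. For 1637 genes they gave TPM in each library. Esrrg, Cntnap2 and Slc17a7 were among those 1637, and the other 5 markers had group averages alone. Summed over genes, the averaged reads came to 18.6 M for SNI and 18.6 M for sham, and the depth of each library is unknown. Of the general markers of large-diameter neurons, Nefh (neurofilament heavy chain) averaged 2877 TPM in SNI and 4485 TPM in sham, Runx3 14.3 and 14.4 TPM, and Ntrk3 9.24 and 10.7 TPM, so RNA of such neurons was present in both groups.

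In the authors' group averages, 7 of the 8 markers were lower in SNI than in sham, and Calb1 was higher. Over all 18696 genes 45.9% had a lower and 53.1% a higher average in SNI. The median log2 ratio of SNI over sham was −0.40 for the 8 markers and 0.02 for all genes. Ratios here and below are of average TPM, and log2 ratios have 1 TPM added to each average. In bulk tissue, fewer cells of a type and less RNA per cell cannot be told apart. None of the 8 was in the authors' list of lower genes, which held 0.695% of genes with averages, or in their list of higher genes, which held 3.63%.

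**Figure D1:**
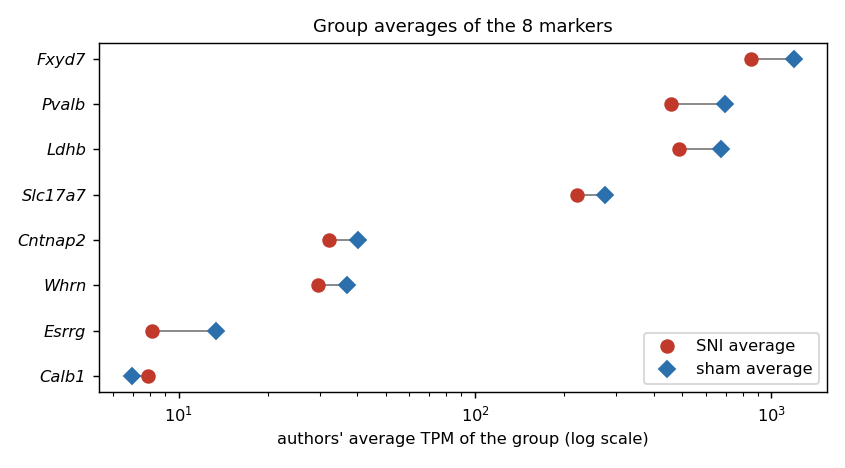
Authors' average TPM of each marker (log axis) in SNI (circles) and sham (diamonds), with no error. The SNI average lies below the sham average for every marker except Calb1.

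The Pvalb average (NCBI Gene ID 25269) was 457.5 TPM in SNI against 697 TPM in sham, a ratio of 0.656. The average read counts behind it were 2314 in SNI and 3514 in sham, so counting error was small, although the spread between libraries is not known. Pvalb is also abundant in fast skeletal muscle. The 12 skeletal muscle markers summed to 24.45 TPM in SNI and 25.9 TPM in sham, with Myh4, the fast myosin heavy chain, at 0.12 and 0.293 TPM. Calb1 (Gene ID 83839) averaged 7.90 TPM in SNI and 6.97 TPM in sham, the lowest level of the 8 in each group. Its average read counts were 122 in SNI and 107 in sham. The read ratio was 1.15, with an exact binomial 95% interval of 0.984 to 1.34 computed on each average times the 3 libraries. That interval covers counting error alone and takes the averages as unscaled counts. A Calb1 difference was therefore not detectable at this depth.

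Of the other 11 calcium-binding protein genes, 9 had a lower average in SNI. Of the 4 tested in the per-library table with limma, described below, 3 fell, 0 rose and 1 did not pass. Over all genes tested there, 29.2% were called lower and 32% higher. Necab1, a neuronal EF-hand protein, stood at 49.6, 50.5 and 47.4 TPM in SNI libraries, against 89.8, 93.2 and 88.0 TPM in sham libraries. Its groups lay far apart, and the log2 fold change was −0.86 (limma SE 0.05, adjusted p = 6.4e-07). Calb2, the gene of calretinin, averaged 80.8 TPM in SNI and 139 TPM in sham.

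Sequences around the start sites are set beside these values. RefSeq entries (GRCr8 assembly) were found for 5 of the 8 markers: Pvalb, Whrn, Slc17a7 and Ldhb with 1 annotated start each and Esrrg with 4. Cntnap2, Calb1 and Fxyd7 had none. The windows hold 250 bases before and 50 bases after a start. Pvalb, the abundant marker with the lowest ratio, and Slc17a7 and Ldhb, each with a close paralog whose average was higher in SNI, are printed 5′ to 3′ in the direction of transcription. Capitals mark the GC box GGGCGG on either strand, and neighbouring matches may share bases. The windows are chr7:111666240-111666539 on the minus strand for Pvalb, chr1:104785955-104786254 on the plus strand for Slc17a7 and chr4:177177359-177177658 on the minus strand for Ldhb.
Pvalb: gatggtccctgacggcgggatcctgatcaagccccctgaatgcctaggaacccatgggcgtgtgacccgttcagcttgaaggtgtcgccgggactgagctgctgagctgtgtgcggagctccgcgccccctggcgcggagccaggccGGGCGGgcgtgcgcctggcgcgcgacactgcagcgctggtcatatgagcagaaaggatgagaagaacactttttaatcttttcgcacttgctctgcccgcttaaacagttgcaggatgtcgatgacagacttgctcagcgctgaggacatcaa
Slc17a7: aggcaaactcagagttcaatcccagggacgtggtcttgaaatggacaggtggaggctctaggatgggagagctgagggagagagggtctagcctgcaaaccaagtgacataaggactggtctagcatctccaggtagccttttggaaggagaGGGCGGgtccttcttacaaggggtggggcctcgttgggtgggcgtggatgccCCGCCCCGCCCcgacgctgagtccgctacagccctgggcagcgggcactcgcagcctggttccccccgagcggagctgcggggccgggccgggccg
Ldhb: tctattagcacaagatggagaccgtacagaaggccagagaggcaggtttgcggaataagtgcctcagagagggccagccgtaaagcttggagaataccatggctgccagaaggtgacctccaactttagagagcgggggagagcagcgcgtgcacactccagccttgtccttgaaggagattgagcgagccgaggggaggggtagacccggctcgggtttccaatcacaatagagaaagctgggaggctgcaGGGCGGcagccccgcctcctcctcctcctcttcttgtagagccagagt

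These windows held 1, 3 and 1 GC boxes in the order printed, and 33.1% of all 33469 RefSeq windows of 300 bases held at least 1. Of the windows not printed, that of Whrn held 2 and those of Esrrg 0, 3, 0 and 1. G and C made up 60.7%, 64.7% and 58% of the printed windows, against a median of 51.7% over all windows. The core site of estrogen-related receptors, AAGGTCA, was found on neither strand in any of the 8 windows of the 5 markers, and 4.61% of all windows held it. The RUNX core TGTGGT was likewise found in none of the 8, against 17.3% of all windows. The absence says only that these letters are not in these windows.

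Esrrg, Cntnap2 and Slc17a7 were tested with limma on log2(TPM + 1), fitted over all 1596 genes of the per-library table with a mean of at least 1 TPM. Each of the 3 fell in SNI, at a threshold of 0.05 on the Benjamini-Hochberg adjusted p. Of all genes tested there, 29.2% were called lower and 32% higher, so a call alone is common. In all 3 the SNI libraries lay below all sham libraries, as they did in 31.3% of tested genes.

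Esrrg (Gene ID 360896), the estrogen-related receptor gamma, was at 7.82, 8.06 and 8.60 TPM in SNI libraries, against 13.75, 12.3 and 14.0 TPM in sham libraries. Every SNI library was below every sham library. The means were 8.16 ± 0.399 TPM in SNI and 13.4 ± 0.906 TPM in sham (SD, n = 3 each). The log2 fold change was −0.65, with SE 0.08 and a limma adjusted p of 6.4e-05.

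Cntnap2 (Gene ID 500105) was at 31.3, 31.4 and 33.5 TPM in SNI libraries, against 43.45, 37.7 and 39.8 TPM in sham libraries. The groups did not overlap, and they came nearest between SNI replicate 3 and sham replicate 2. Means were 32.1 ± 1.25 TPM in SNI and 40.3 ± 2.89 TPM in sham (SD, n = 3 each), and the log2 fold change was −0.32 (SE 0.06, limma adjusted p = 0.0021).

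Slc17a7 (Gene ID 116638) was at 215, 220 and 228 TPM in SNI libraries, against 274.5, 258 and 290 TPM in sham libraries. Its groups did not overlap either. The SNI mean was 221 ± 6.59 TPM and the sham mean 274 ± 16.0 TPM (SD, n = 3 each), and the log2 fold change was −0.31 (limma SE 0.05, adjusted p = 0.00077). In each of the 3 genes sham replicate 2 was the lowest sham library and SNI replicate 3 the highest SNI library.

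**Figure D2:**
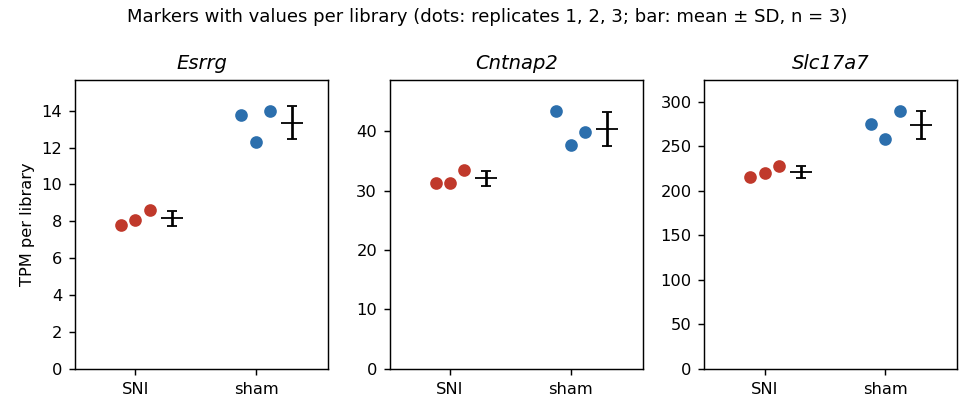
TPM of Esrrg, Cntnap2 and Slc17a7 in each library (dots, replicates 1 to 3 from left to right), with mean ± SD (n = 3) as bars, SNI left and sham right, from 0. The 3 SNI dots lie below the 3 sham dots in each panel.

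The size of these falls depended on what the libraries were scaled to. Scaled to the 5 pan-neuronal genes of the per-library table, the log2 fold changes were −0.49 for Esrrg, −0.17 for Cntnap2 and −0.16 for Slc17a7 (limma adjusted p = 0.00017, 0.0078 and 0.031). That scaling adds the same 0.15 to the log2 fold change of every gene, and the median of all tested genes moved to 0.16, against 0.01 as deposited. The distance of the 3 genes from that median was therefore unchanged by it. The 5 genes averaged −0.15 on the log2 scale, while the group averages of all 16 pan-neuronal genes had a mean log2 ratio of 0.04, so a scaling to the 16 moves ratios the opposite way. Scaling to the 5 genes gave 785 genes called higher and 256 lower, against 510 and 466 as deposited, and quantile normalization gave 402 and 608. Each of the 3 genes was called lower under both.

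The RNA of other large-diameter neuron genes was described with a list of 25. In SNI 20 had a lower and 5 a higher average, with a median log2 ratio of −0.25. Of 9 tested, 7 fell, 1 rose and 1 did not pass, beside 29.2% called lower and 32% higher of all genes tested. Hapln4, a link protein of perineuronal nets, was at 34.8, 33.2 and 37.9 TPM in SNI libraries, against 63.0, 61.4 and 67.25 TPM in sham libraries (log2 fold change −0.84, SE 0.06, limma adjusted p = 3.9e-06). Spp1, osteopontin, was the member that rose, with means of 2219 ± 38.7 TPM in SNI and 1172 ± 27.1 TPM in sham (SD, n = 3 each). Which cells of the ganglion held the Spp1 RNA, neurons or others, was not tested. Among the falls the call of Piezo2, the touch channel, was fragile. It was lost without any 1 of SNI replicates 1, 2 and 3 or sham replicates 1 and 3 (limma adjusted p from 0.065 to 0.12). Piezo2 and Kcna1, a Kv1 channel, were also not called after scaling to pan-neuronal genes (limma adjusted p = 0.63 and 0.13).

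Caspr2, the product of Cntnap2, sits in the juxtaparanode with Kv1 channels, contactin 2 and ADAM22. All 8 genes listed as its partners had a lower average in SNI, with log2 ratios between −0.57 and −0.20. All 6 tested fell, beside 29.2% of all genes tested. Kcna2, a Kv1 subunit of these axons, was at 63.3, 65.2 and 66.7 TPM in SNI libraries, against 102.7, 91.4 and 97.1 TPM in sham libraries (log2 fold change −0.57, SE 0.06, limma adjusted p = 1.9e-05). Adam23, an ADAM22 relative, fell by 0.31 on the log2 scale (limma SE 0.06, adjusted p = 0.0014). Kcnab2, the Kv1 beta subunit, averaged 520.1 TPM in SNI and 745 TPM in sham. Kcna1, Cntn2 and Epb41l3 were not called after scaling to pan-neuronal genes (limma adjusted p = 0.13, 0.36 and 0.11). Without any 1 of SNI replicates 1 and 2 or sham replicates 1 and 3, Cntn2 was not called (limma adjusted p from 0.059 to 0.0695).

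Node and paranode genes, the neighbouring compartments, gave a median log2 ratio of 0.03. Of these 9 genes, 4 averages were lower and 5 higher in SNI, beside 45.9% lower and 53.1% higher over all genes. Of 4 tested 2 fell, 0 rose and 2 did not pass, beside 29.2% called lower and 32% higher of all genes tested. Cntnap1, the paranodal relative of Cntnap2, averaged 135 TPM in SNI and 158 TPM in sham. Scn8a, the nodal sodium channel, was among the genes that fell (log2 fold change −0.35, SE 0.07, limma adjusted p = 0.0027). Whether the juxtaparanode and node lists differ was not tested.

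**Figure D3:**
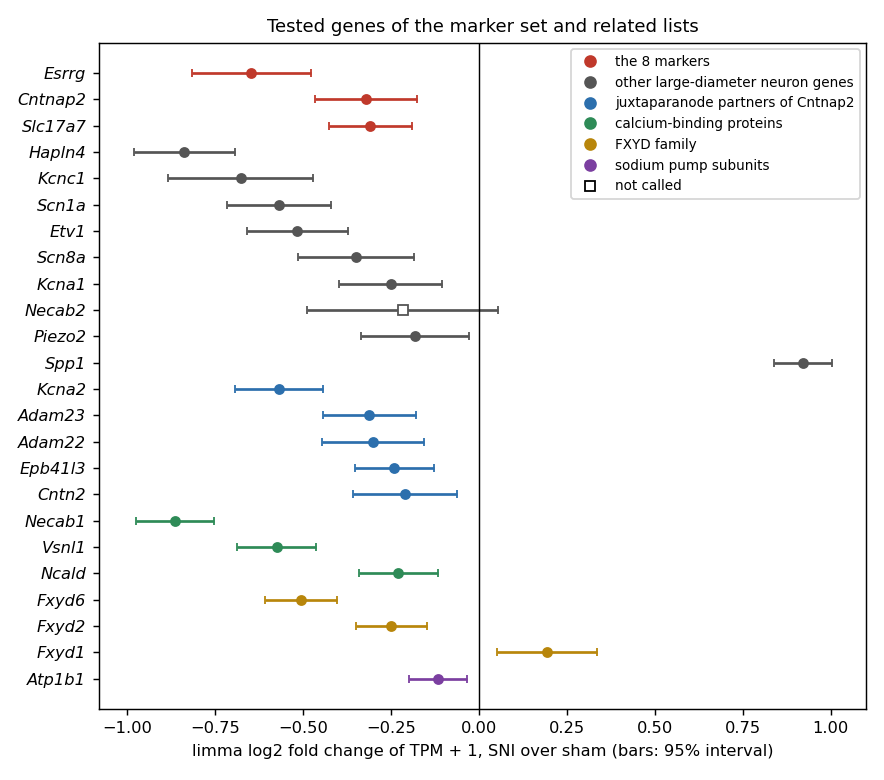
limma log2 fold changes of TPM + 1, SNI over sham, with 95% intervals, for tested genes of the marker set and 5 related lists, each drawn once and 1 sodium pump gene left out. Spp1 and Fxyd1 lie right of 0, the open square of Necab2 was not called, and the other genes lie left of 0, of which Atp1b1 lies nearest to 0.

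Slc17a7 is one of 3 vesicular glutamate transporters. Its paralog Slc17a6 (VGLUT2), found in most sensory neurons, averaged 67.2 TPM in SNI and 54.75 TPM in sham, and Slc17a8 (VGLUT3), known from C-fibre mechanoreceptors of the mouse, 1.63 and 1.43 TPM. The ratio of Slc17a7 to Slc17a6 was thus 3.29 in SNI and 5.01 in sham, with no spread known for Slc17a6. The difference between the 2 paralogs was in the averages alone and had no test.

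Lactate dehydrogenase is a tetramer of the subunits encoded by Ldha and Ldhb. Ldhb (Gene ID 24534) averaged 487.5 TPM in SNI and 677 TPM in sham, a ratio of 0.720, on 5850 and 8061 average reads. Ldha, the subunit of glycolytic tissues, averaged 638 TPM in SNI and 560 TPM in sham. The ratio of Ldhb to Ldha was 0.764 in SNI and 1.21 in sham, so the more abundant of the 2 average levels was Ldha in SNI and Ldhb in sham. Ldhd averaged 14.0 and 16.2 TPM in SNI and sham, and Ldhc and Ldhal6b lay under 1 TPM in both.

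Beside Esrrg, the other estrogen-related receptors also had lower averages in SNI. Esrra averaged 32.2 TPM in SNI and 43.5 TPM in sham, and Esrrb 2.14 and 4.21 TPM. Their coactivator Ppargc1a, a regulator of mitochondrial genes, averaged 9.09 TPM in SNI and 7.72 TPM in sham, and Ppargc1b 1.58 and 1.93 TPM.

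Fxyd7 (Gene ID 63848) was the most abundant of the 8 markers in both groups, at 855 TPM in SNI and 1194 TPM in sham, a ratio of 0.716 on 5416 and 7489 average reads. FXYD proteins bind the sodium pump and change its ion affinity. Among its relatives 3 were tested: Fxyd6 and Fxyd2 fell (log2 fold changes −0.51 and −0.25, limma adjusted p = 1.2e-05 and 0.0011), and Fxyd1 rose (0.19, limma adjusted p = 0.024). Of all genes tested, 29.2% were called lower and 32% higher. Fxyd1 was not called without SNI replicate 1 or 3 (limma adjusted p = 0.066 and 0.076), and Fxyd2 not after scaling to pan-neuronal genes (0.27). Fxyd5, in the authors' list of higher genes, averaged 160 TPM in SNI and 70.6 TPM in sham, and Fxyd3 15.2 and 17.0 TPM.

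Of the 7 sodium pump subunits themselves, 6 averages were lower and 1 higher in SNI. Both tested genes fell, beside 29.2% called lower of all genes tested. One of them, Atp1b1, a beta subunit, had a log2 fold change of −0.12 (limma adjusted p = 0.020). It is smaller than the 0.15 that scaling to pan-neuronal genes adds to every gene, and was 0.037 under it (limma adjusted p = 0.58). Atp1b1 was also not called without SNI replicate 1 or 3 or sham replicate 3 (limma adjusted p from 0.054 to 0.10). Atp1b2, another beta subunit, had a log2 ratio of group averages of 0.77.

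**Figure D4:**
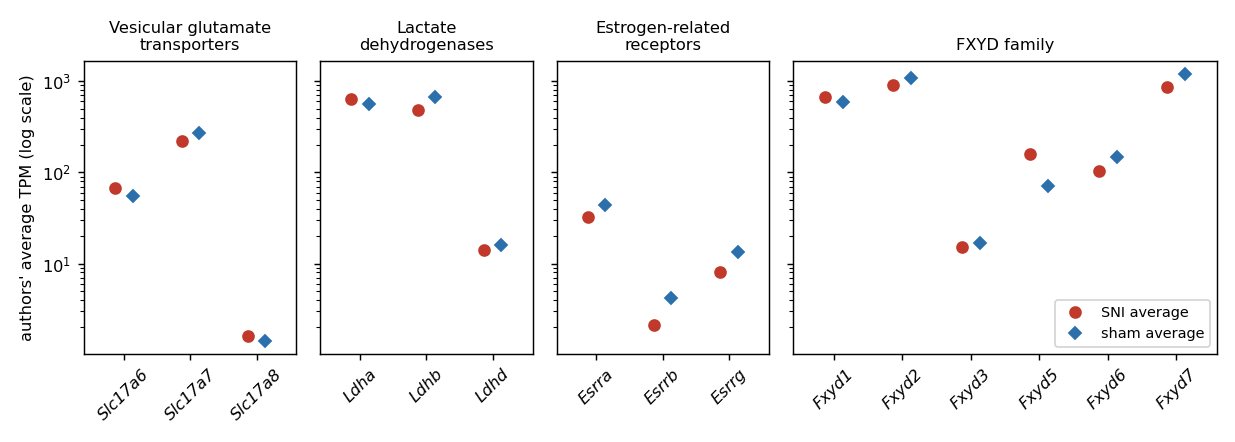
Authors' average TPM (log axis) of 4 marker genes (Slc17a7, Ldhb, Esrrg and Fxyd7), of those of their paralogs above 1 TPM and of Ldhd, in SNI (circles) and sham (diamonds), with no error. Slc17a6, Slc17a8, Ldha, Fxyd1 and Fxyd5 have the SNI average above the sham average, and the other genes drawn below it.

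Whrn (Gene ID 313255) averaged 29.5 TPM in SNI and 36.9 TPM in sham, a ratio of 0.799 on 744 and 923 average reads. Whirlin is known from hair cells, where it binds ADGRV1. The gene Adgrv1 averaged 0.873 TPM in SNI and 1.04 TPM in sham. Mpp1, a membrane scaffold that binds whirlin, averaged 171 TPM in SNI and 174 TPM in sham, and the median log2 ratio of the 8 listed partners was −0.05.

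By level the markers ran Fxyd7, Ldhb, Pvalb, Slc17a7, Cntnap2, Whrn, Esrrg and Calb1 in SNI. In sham Pvalb stood before Ldhb and the rest kept their places. Pvalb and Ldhb were close in each group (457.5 and 487.5 TPM in SNI, 697 and 677 TPM in sham), and with no spread known for either their order is not settled. The same holds for Esrrg, at 8.16 ± 0.399 TPM, and Calb1, at 7.90 TPM with no spread, in SNI, and for Cntnap2 and Whrn in both groups.

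Patterns over the 6 libraries were compared by Pearson's r of log2(TPM + 1), with no test, as the libraries share the group difference. The 3 genes most like Slc17a7 were Kcnc1 (r = 0.998), Lamb2 (0.998) and Dlgap3 (0.996). Kcnc1 encodes Kv3.1, a channel of fast-firing neurons, and stood at 11.6 ± 0.923 TPM in SNI and 19.2 ± 2.13 TPM in sham (SD, n = 3 each). For Esrrg they were Nat8l, Cadps and Dpp6 (r = 0.999, 0.998 and 0.998), and for Cntnap2 Acy1, RGD1311575 and Slc24a2 (each r = 0.997). An r over 0.95 was reached by 226 genes with Esrrg, 142 with Cntnap2 and 135 with Slc17a7.

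Nociceptor markers were set beside the 8 as another neuron class. Of 17, 12 averages were lower and 5 higher in SNI (median log2 ratio −0.35). Of 7 tested 6 fell, 0 rose and 1 did not pass, beside 29.2% called lower of all genes tested. An example was Mrgprd, an itch receptor gene, which fell by 0.55 on the log2 scale (limma SE 0.07, adjusted p = 0.00017). Nppb averaged 6.36 and 2.43 TPM in SNI and sham. No difference between the neuron classes was tested.

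The 16 pan-neuronal genes had a median log2 ratio of −0.02, with 8 averages lower and 8 higher in SNI. Of the 5 tested, to which the libraries were scaled above, 4 fell, 0 rose and 1 did not pass. Over all genes tested 29.2% were called lower and 32% higher. Snap25, a synaptic vesicle fusion protein, had a log2 fold change of −0.43 (limma adjusted p = 1.2e-05). Rbfox3, the NeuN gene, averaged 123 TPM in SNI and 183 TPM in sham, and Stmn2 3275 and 2422 TPM. All 13 injured sensory neuron genes with averages were in the authors' list of higher genes, which held 3.63% of genes with averages. These injured-neuron genes were chosen with earlier results of these data known. Atf3, the transcription factor that axotomy switches on, averaged 288 TPM in SNI and 8.13 TPM in sham.

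Markers of other cells also differed between the groups, some lower and some higher in SNI. Of 11 myelinating Schwann cell markers 10 averages were lower in SNI, and all 6 tested fell, beside 29.2% of all genes tested. These 6 summed to between 4234 and 4375 TPM in SNI libraries and between 8344 and 8531 TPM in sham libraries. All 14 macrophage averages were higher, and 10 of the genes were in the authors' higher list, which held 3.63% of genes with averages. The 5 tested macrophage genes summed to between 61.0 and 63.8 TPM in SNI libraries and between 25.2 and 26.1 TPM in sham libraries. All 11 erythrocyte averages were higher in SNI too, and the list summed to 2062 TPM in SNI and 624 TPM in sham. Of 9 satellite glia averages 8 were higher in SNI (median log2 ratio 0.12), while the list summed to 8151 TPM in SNI and 8841 TPM in sham. Of 5 satellite glia markers tested 2 rose, 1 fell and 2 did not pass, beside 32% called higher and 29.2% lower of genes tested. Brain and spinal cord markers summed to 11.7 TPM in SNI and 11.2 TPM in sham. The part of these cells in the values of the 8 markers was not tested.

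**Figure D5:**
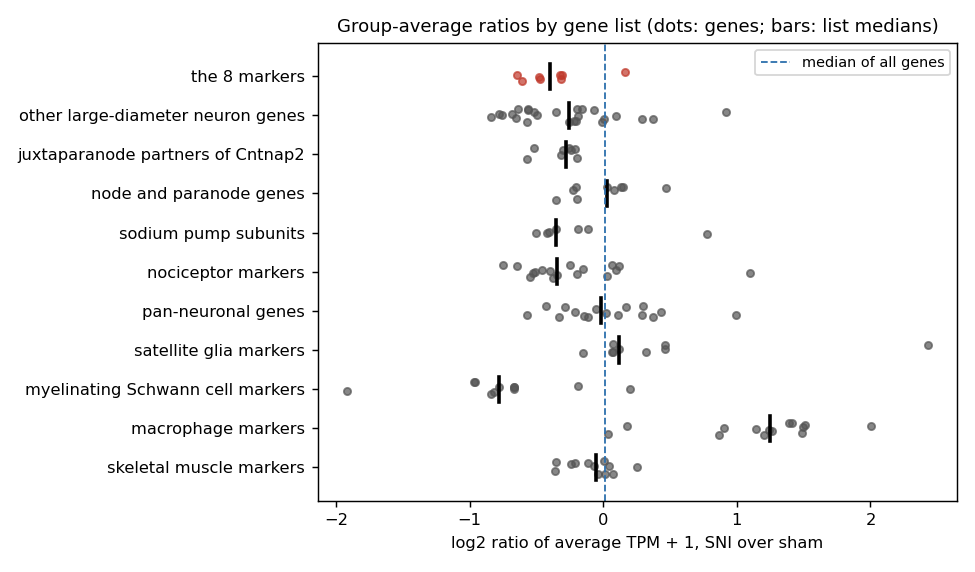
Log2 ratio of average TPM + 1, SNI over sham, for each gene (dots) of the 8 markers and 10 other lists, with list medians (bars) and the median of all genes (dashed line). The marker median is −0.40, and the medians of the lists drawn, which leave out erythrocyte and injured sensory neuron genes, run from −0.78 for myelinating Schwann cell markers to 1.25 for macrophage markers.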

How the data were processed

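RNA sequencing of rat dorsal root ganglia was analysed from the deposited tables of 6 libraries, 3 SNI and 3 sham. The tables hold, per the file headers, TPM per library for 1637 genes and group averages of TPM and read counts for 18696 genes. The authors also deposited a list of 699 higher genes and one of 136 lower genes. The read counts, as deposited, are estimated counts averaged over a group. The aligner, counter, build and the rules of the lists and of the per-library table are not stated in the labels or headers, and neither is strand. Columns named control were taken as sham. The labels' protocols give 2 extraction methods (Trizol, mirVana) and 2 library kits (TruSeq, NEBNext).

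Genes averaging at least 1 TPM over the 6 libraries were fitted as log2(TPM + 1) by group in limma 3.58.1 under R 4.3.3. The prior variance followed mean intensity, and p-values were adjusted by Benjamini-Hochberg. The fit was tested on simulated data. Group averages had no test, and their read-count intervals (exact binomial, 95%, on each average times the 3 libraries) cover counting error only.

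The markers and the 19 other gene lists were chosen with earlier results of these data known. Of 200 listed genes 194 were matched by symbol and 3 by RefSeq symbol. The text names the markers, their paralogs, and up to 3 genes of each list with the largest absolute log2 ratio and an average of at least 5 TPM, with Adgrv1, Atp1b1, Cntn2, Epb41l3, Kcna1, Myh4, Ncald, Necab2, Nefh, Ntrk3, Piezo2, Ppargc1b, Runx3 and Snap25 added after values were seen, and some genes the rule gave are not reported here. For patterns it names 3 genes per marker by Pearson's r. Alternatives covered the pseudocount, the filter, scaling, trend, a replicate block and leaving out each library. Same-numbered libraries did not clearly deviate together and were not taken as pairs, although 3 per group cannot settle this.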

Additional observations from a re-analysis of the deposited data

How the results depend on the processing

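Esrrg, Cntnap2 and Slc17a7 were called lower in SNI under each of the 13 alternatives run, and their direction held in each. Leaving out 1 library gave log2 fold changes from −0.70 to −0.61 for Esrrg, from −0.37 to −0.27 for Cntnap2 and from −0.35 to −0.27 for Slc17a7, with limma adjusted p of at most 0.00047, 0.011 and 0.0045, and counts from 445 to 524 genes higher and from 387 to 477 lower. Scaling to pan-neuronal genes gave 785 higher and 256 lower genes, against 510 and 466. It adds 0.15 to every log2 fold change by construction, which put Atp1b1, at −0.12 as deposited, at 0.037. Ncald, a calcium-binding protein gene that fell, was not called under that scaling (limma adjusted p = 0.12), Piezo2 and Atp1b1 were not called without an intensity trend (0.060 and 0.054), and Necab2 was called lower after quantile normalization (0.027). With the replicate block the log2 fold changes were −0.65, −0.32 and −0.31 (limma adjusted p = 0.00015, 0.0032 and 0.00063), with 498 genes higher and 447 lower. Deviations of same-numbered libraries correlated at −0.09, −0.06 and 0.19, and those of the other pairs from −0.29 to 0.29. With 3 libraries per group these values cannot settle whether the numbers pair the libraries. Relative to the 16 pan-neuronal genes of the group averages, the log2 ratios were −0.35 for Slc17a7, −0.51 for Ldhb and −0.52 for Fxyd7. For the other 5 markers that setting, and for all 8 a pseudocount of 0.1 TPM or ratios of read counts, moved the log2 ratio by less than counting error. The 5 markers with averages alone have no spread between libraries, and the depth of each library is unknown.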

Other observations

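Esrrg differed between the groups in the reads that stood behind 1 TPM, a quantity that follows the length of the transcripts counted. It had 47.8 average reads per average TPM in SNI and 45.7 in sham, a ratio of 1.05. Over 11562 genes with at least 100 average reads in both groups the median ratio was 1.01, and 1.33% of genes were at or above Esrrg. The other 7 markers had ratios between 1.00 and 1.01. The paralog Esrrb had a larger ratio of 1.07, on 108 average reads in SNI and 199 in sham, so the difference was not particular to Esrrg. RefSeq lists 4 start sites for Esrrg, and which of them were used in either group was not tested. The value was noticed after the tables were seen and has no spread between libraries.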
